A study of Mus musculus with 8 samples.

Results

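Acetylcholine receptors and acetylcholinesterase were described here in the hippocampus of aged mice with an amyloid precursor protein transgene, through 8 genes: the muscarinic receptors Chrm1, Chrm2, Chrm3 and Chrm4, the nicotinic subunits Chrna4, Chrna7 and Chrnb2, and the enzyme Ache. They were chosen by symbol, with 1 probe set a gene, and all 8 were measured among 19505 genes on the array and passed the filter on low values, as 14628 genes did. The hippocampi came from 4 mice labelled as impaired in memory and 4 labelled as intact, all 18 to 20 months old, all recorded as B6.Cg-Tg(APPswe)E1-2Dbo/J, and all taken after the Morris water maze, in which a mouse learns where a platform lies hidden under water. Every mouse of both groups carried the transgene, so that no comparison with mice free of it was made here; the promoter that drives the transgene is not given in the sources used here. The study asked which hippocampal transcripts differ with memory among such mice, and each mouse gave 1 array.

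Acetylcholine reaches the hippocampus mainly from axons of neurons in the medial septum and the diagonal band, and it tunes the excitability and plasticity on which spatial learning depends. Muscarinic receptors are coupled to G proteins: the products of Chrm1 and Chrm3 act through Gq and phospholipase C, and those of Chrm2 and Chrm4 through Gi, which lowers cyclic AMP. Nicotinic receptors are ion channels of several subunits, of which the common forms in the forebrain join the products of Chrna4 and Chrnb2 or are built from that of Chrna7. Acetylcholinesterase ends the signal by splitting acetylcholine, and its inhibitors are used as drugs in Alzheimer's disease.

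The levels of the 8 genes overlapped between the groups, and their differences were small beside the spread between mice. On the log2 scale, on which a step of 1 is a doubling, the differences (impaired minus intact) ran from -0.08 for Chrm3 to 0.087 for Chrm4. With limma's test, adjusted over all genes tested, 0 of the 8 genes passed a threshold of 0.05 (adjusted p from 0.965 to 0.997), and 0.0% of all genes passed it. At an unadjusted p under 0.05 there were 0 of the 8 genes, beside 685 of all genes, or 4.68% (2.17% higher and 2.52% lower in impaired mice). The groups did not overlap for 0 of the 8 genes and for 2.58% of all genes. Of the 8 genes 4 had lower means in the impaired mice, as had 52.9% of all genes, and 4 had higher ones, as had 47.1%. The median of the absolute differences was 0.0192 over the 8 genes and 0.0771 over all genes tested.

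Array facts that bear on these values were alike in all mice after the authors' normalization. Array medians of the tested genes ran from 7.75 to 7.79, but RMA normalizes arrays by quantiles, so close medians follow from that step and do not measure RNA quality. Pairs of arrays correlated at 0.979 to 0.989 across genes, and no pair held identical values. Probe sets for introns, which serve as a background on this array, had a 95th percentile of 7.92. The means of Chrm2 and Chrm4 lay above 94.4% and 94.6% of these 5222 probe sets, and those of the other 6 genes above 95.6% or more. Each probe set has its own response, so a level of 1 gene is not comparable with that of another, and the log2 ratios of gene pairs given further on serve only to compare mice.

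Among the Gq-coupled receptors, Chrm1, the main muscarinic receptor of pyramidal neurons, had log2 values of 10.34, 10.30, 10.20 and 10.54 in impaired mice 1 to 4, against 10.51, 10.16, 10.58 and 10.21 in intact mice 1 to 4. Both groups held high and low mice, and the highest and the lowest value were both from intact mice. Chrm1 averaged 10.34 ± 0.14 in impaired and 10.36 ± 0.21 in intact mice (SD, n = 4 each), a difference of -0.019 ± 0.12 (standard error; adjusted p = 0.995 in limma). Chrm3, which acts through the same pathway, stood at 7.97, 7.99, 8.09 and 8.15 in impaired mice, against 8.20, 8.04, 8.34 and 7.94 in intact mice. All impaired values fell within the range of the intact ones. The 95% interval of the Chrm3 difference ran from -0.30 to 0.14.

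Among the Gi-coupled receptors, Chrm2, known as an autoreceptor on cholinergic terminals, had log2 values of 7.66, 7.98, 7.75 and 7.80 in impaired mice, against 7.55, 8.03, 7.80 and 7.89 in intact mice. The impaired values again lay within the intact range, and the difference was -0.019 (95% interval from -0.27 to 0.23). Chrm4 varied most among the 8 genes. It stood at 8.25, 8.05, 7.45 and 7.91 in impaired mice, against 7.78, 7.61, 8.34 and 7.58 in intact mice. Impaired mouse 3 had the lowest value of all and intact mouse 3 the highest. The SD of Chrm4 over all 8 mice was 0.32, larger than that of 95.9% of the genes tested, while the SDs of the other 7 genes, from 0.14 to 0.21, lay between the percentiles 40.6 and 77.4. The Chrm4 difference was 0.087 ± 0.19 (standard error; adjusted p = 0.99 in limma), and its interval, from -0.34 to 0.52, was the widest of the 8.

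**Figure D1:**
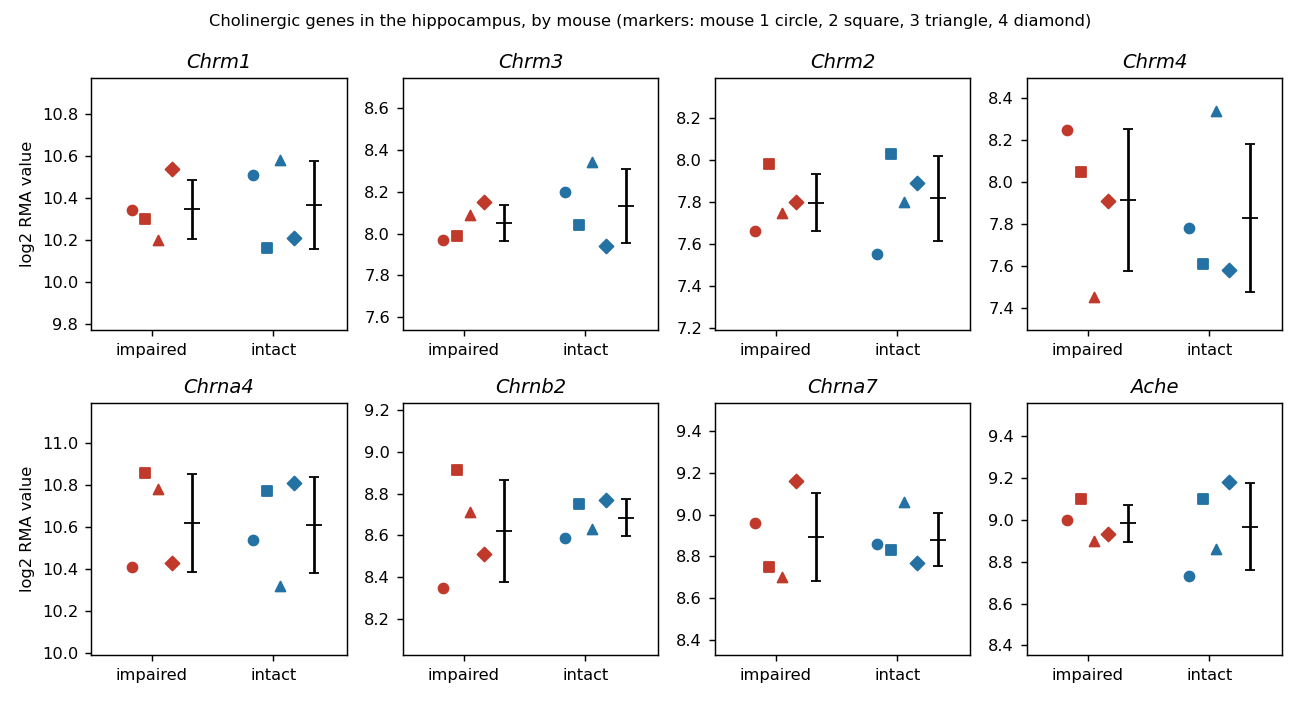
Log2 expression (RMA) of the 8 cholinergic genes in each mouse, with the impaired group at the left and the intact group at the right of each panel. Symbols stand for mice, the bar is the mean ± SD (n = 4 each), and every panel spans the same height. The groups overlap in all 8 panels, and Chrm4 is spread most widely, from 7.45 to 8.34.

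Of the nicotinic subunits, Chrna4 and Chrnb2 form 1 receptor together. Chrna4 had log2 values of 10.41, 10.86, 10.78 and 10.43 in impaired mice, against 10.54, 10.77, 10.32 and 10.81 in intact mice. In each group 2 mice were high, at 10.77 or more, and 2 were low, at 10.54 or less, and the means were 10.62 ± 0.23 in impaired and 10.61 ± 0.23 in intact mice (SD, n = 4 each). They differed by 0.013 ± 0.14 (standard error; adjusted p = 0.997 in limma). Chrnb2 stood at 8.35, 8.91, 8.71 and 8.51 in impaired mice, against 8.59, 8.75, 8.63 and 8.77 in intact mice. The impaired mice held both the lowest and the highest Chrnb2 value, and the difference was -0.063 (95% interval from -0.32 to 0.20). The log2 ratio of Chrna4 to Chrnb2 within an array averaged 2.00 ± 0.077 in impaired and 1.92 ± 0.16 in intact mice (SD, n = 4 each). That is a difference of 0.076, which an exact permutation test over 70 relabellings, two-sided, did not call (p = 0.514, adjusted p = 0.943 over the 2 ratios tested, smallest p possible 0.0286). Intact mouse 3, with the lowest ratio, 1.69, carried this difference, which was -0.0036 without that mouse.

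Chrna7, the subunit of a fast, calcium-permeable receptor found on hippocampal interneurons, stood at 8.96, 8.75, 8.70 and 9.16 in impaired mice, against 8.86, 8.83, 9.06 and 8.77 in intact mice. Impaired mice held the highest and the lowest value. Chrna7 averaged 8.89 ± 0.21 in impaired and 8.88 ± 0.13 in intact mice (SD, n = 4 each), with a 95% interval of the difference from -0.24 to 0.26.

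The promoters of these 3 subunits are shown because Chrna4 correlated positively with Chrnb2 and negatively with Chrna7 over the mice, as given further on. The windows, from 250 bases before to 50 after the gene start in the RefSeq tables for GRCm38.p6, are chr2:181039128-181039427 for Chrna4, chr3:89764583-89764882 for Chrnb2 and chr7:63212477-63212776 for Chrna7, all on the minus strand and written 5′ to 3′ along the gene. Capitals mark the letters of 3 motifs searched on both strands: GGGCGG, the GC box of Sp1 factors, CTTTGA, the core of TCF/LEF sites, and CACGTG, an E-box.
Chrna4: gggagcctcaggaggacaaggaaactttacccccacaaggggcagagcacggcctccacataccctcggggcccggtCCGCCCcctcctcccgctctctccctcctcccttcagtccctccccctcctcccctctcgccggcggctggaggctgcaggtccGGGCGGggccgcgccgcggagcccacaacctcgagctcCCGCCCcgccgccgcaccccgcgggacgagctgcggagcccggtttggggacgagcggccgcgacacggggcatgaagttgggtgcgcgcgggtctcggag
Chrnb2: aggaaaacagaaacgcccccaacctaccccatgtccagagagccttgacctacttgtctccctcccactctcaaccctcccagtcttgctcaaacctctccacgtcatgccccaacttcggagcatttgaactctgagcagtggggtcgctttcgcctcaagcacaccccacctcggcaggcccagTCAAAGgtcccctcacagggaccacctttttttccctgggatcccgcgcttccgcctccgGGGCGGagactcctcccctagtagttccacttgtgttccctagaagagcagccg
Chrna7: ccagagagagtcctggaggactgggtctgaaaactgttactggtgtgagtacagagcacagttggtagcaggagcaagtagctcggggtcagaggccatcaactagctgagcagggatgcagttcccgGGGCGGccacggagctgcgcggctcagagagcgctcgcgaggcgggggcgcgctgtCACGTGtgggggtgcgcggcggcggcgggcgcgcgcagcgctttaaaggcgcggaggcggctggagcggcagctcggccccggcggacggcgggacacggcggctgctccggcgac
The window of Chrna4 held 3 GC boxes, that of Chrnb2 1 GC box and 1 TCF/LEF core, and that of Chrna7 1 GC box and 1 E-box, with no overlap between motifs. Of 32851 windows of the same length, 35.7% held a GC box, 16.0% a TCF/LEF core and 7.15% an E-box. The GC content was 74.3% for Chrna4, 59.0% for Chrnb2 and 70% for Chrna7, against a median of 52.7% over all windows. Windows were found for 7 of the 8 genes. A match of letters is a description of the window and shows no binding.

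Ache had log2 values of 9.0, 9.10, 8.90 and 8.93 in impaired mice, against 8.73, 9.10, 8.86 and 9.18 in intact mice. The intact mice held the lowest and the highest value, and the means were 8.98 ± 0.089 in impaired and 8.97 ± 0.21 in intact mice (SD, n = 4 each), a difference of 0.013 (95% interval from -0.23 to 0.25). Ache was the only gene of the 8 with 2 probe sets, and the brighter one has no place on a chromosome in the array's naming. The other probe set had means of 8.21 in impaired and 8.28 in intact mice, a difference of -0.07, and both probe sets correlated at r = 0.70 over the 8 mice. The direction of the Ache difference thus turned with the probe set. Bche encodes butyrylcholinesterase, the other enzyme that splits acetylcholine, and the log2 ratio of Ache to Bche averaged 2.72 ± 0.22 in impaired and 2.70 ± 0.074 in intact mice (SD, n = 4 each; exact permutation test, two-sided, p = 0.943, adjusted p = 0.943). Impaired mouse 4, at 2.39, was the lowest of all, and without it the difference was 0.13 in place of 0.018 (exact permutation p = 0.0857). Bche averaged 6.26 in impaired and 6.27 in intact mice. Its mean lay above 74.4% of the intron probe sets and that of Ache above 97.9%, so the ratio rests on a gene nearer background.

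The intervals set limits to the differences that could have gone unseen. For 7 of the genes the 95% intervals, written as a ratio of impaired to intact, stayed between 0.799 and 1.25. For Chrm4 the interval ran from 0.788 to 1.43. A missed threshold does not show that the groups were alike. In hippocampal tissue, moreover, fewer cells of a type and less RNA per cell cannot be told apart.

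**Figure D2:**
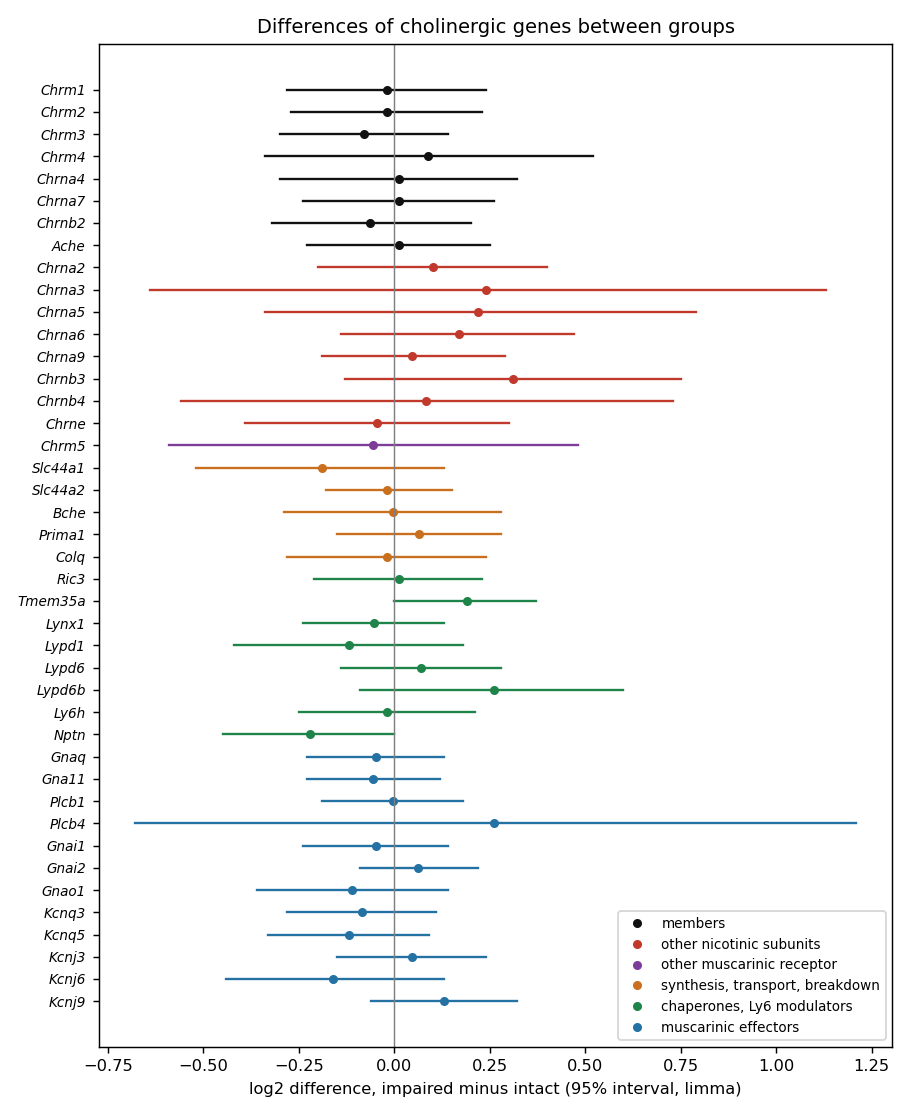
Log2 differences, impaired minus intact, with 95% intervals from limma, for the 8 genes in black and below them the 34 other cholinergic genes tested, coloured by group. None passed an adjusted p of 0.05, and the widest intervals belong to Chrna3 and Plcb4.

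Around the 8 genes, 43 other genes of the cholinergic system were listed, of which 42 were measured and 34 passed the filter on low values. Of these 34, 16 had higher and 18 lower means in impaired mice, with a median difference of -0.0035, beside -0.0083 over all genes tested. With limma, 0 passed the adjusted threshold and 2, or 5.88%, had an unadjusted p under 0.05, close to the 4.68% of all genes. Of 7 cholinergic neuron markers measured, 4 were under the filter's floor, among them those of the acetylcholine machinery. Chat, which makes acetylcholine, had values of 2.99 to 3.52 in impaired and 3.01 to 3.93 in intact mice. Slc18a3, its vesicular transporter, reached 4.28 in impaired and 5.20 in intact mice, and Slc5a7, the high-affinity choline transporter, reached 5.21 in impaired and 5.59 in intact mice. The means of these 3 genes lay above 12.8%, 25.9% and 41.7% of the intron probe sets and under the floor of 5.328, so they were not tested. The other markers went the other way: the means of Ngfr, Lhx8 and Gbx1 lay above 90.9%, 86.3% and 78.3% of the intron probe sets and were tested.

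Of the other nicotinic subunits, 8 of 13 were tested, 7 with higher and 1 with lower means in impaired mice, beside 47.1% of all genes with higher means, and 0 passed the threshold. The means of Chrna2, Chrna5, Chrna6 and Chrnb3 were near background, above 52.6% to 57.3% of the intron probe sets. Those of Chrna3, Chrna9, Chrnb4 and Chrne lay above 71.6% to 81.6% of them. Of the 7 with higher means, Chrna3, Chrnb3 and Chrnb4 all correlated with a habenula score, as given further on, so the 7 are not all separate results. The others of the 7 were not set against that score. Chrna3 stood at 6.25, 7.76, 6.26 and 6.90 in impaired mice, against 6.10, 6.96, 5.72 and 7.41 in intact mice. Its SD over all mice, 0.70, was larger than that of 99.8% of the genes tested, and its difference of 0.24 had a standard error of 0.40. The Chrnb3 difference was 0.31 ± 0.20 (standard error; adjusted p = 0.961 in limma). In Chrm5, the fifth muscarinic receptor, impaired mouse 3 stood apart at 5.52, and the difference was -0.056 (standard error 0.24).

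In the list of chaperones and Ly6 modulators of nicotinic receptors, 4 of 8 genes had higher and 4 lower means, and 2 had an unadjusted p under 0.05; they are the 2 just counted among the 34. Tmem35a encodes a chaperone that nicotinic receptors need for assembly. It stood at 7.95, 7.96, 7.74 and 7.84 in impaired mice, against 7.59, 7.76, 7.66 and 7.74 in intact mice. Impaired mice were mostly higher, but impaired mouse 3 lay below intact mouse 2, and the difference was 0.19 ± 0.083 (standard error; unadjusted p = 0.0474 and adjusted p = 0.961 in limma). Nptn, a cell adhesion protein that is not specific to cholinergic synapses, showed a difference of -0.22 ± 0.10 (standard error; unadjusted p = 0.0477 and adjusted p = 0.961 in limma). Lypd6b, of the Ly6 family, differed by 0.26 (standard error 0.16).

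Of the genes for synthesis, transport and breakdown, 5 of 8 were tested, 1 with a higher and 4 with lower means. Slc44a1, a choline transporter-like protein, differed by -0.19 (standard error 0.15), Prima1, which anchors acetylcholinesterase in neuronal membranes, by 0.064 (standard error 0.096) and Bche by -0.0046 (standard error 0.13). Of 12 tested effectors of muscarinic receptors, 4 had higher and 8 lower means. Kcnj6, a potassium channel opened by Gi-coupled receptors, differed by -0.16 (standard error 0.13). Plcb4, a phospholipase C driven by Gq, differed by 0.26 with a standard error of 0.43. Plcb4 stood at 7.67 in intact mouse 3 and at 8.92 to 9.92 in the other mice.

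Across the 8 mice the correlations between the genes fell into 2 sets of opposite sign, though none passed adjustment. Chrna4 went with Chrnb2 (Pearson r = 0.81, exact permutation p = 0.0119; Spearman rho = 0.83, p = 0.0154) and against Chrna7 (r = -0.88, p = 0.00382; rho = -0.86, p = 0.0107). Chrm2 went with Ache (r = 0.79, p = 0.0213; rho = 0.74, p = 0.0458), and Chrm1 with Chrna7 (r = 0.80, p = 0.0222; rho = 0.79, p = 0.0279). Of the 28 pairs of the 8 genes, 7 had an unadjusted p under 0.05 for Pearson's r and 0 passed adjustment over all pairs (smallest adjusted p = 0.089 for r and 0.144 for rho). The share among pairs of all genes tested was not computed. Whether the 8 genes differ from other genes in this was therefore not tested. Without the mice farthest from the median of the first gene named, 2 in each pair, r was 0.94 for Chrna4 with Chrnb2, -0.87 for Chrna4 with Chrna7, 0.57 for Chrm2 with Ache and 0.50 for Chrm1 with Chrna7. Of the 28 pairs 2 changed sign, Chrm3 with Chrm4 (r = -0.19 without the 2 mice, 0.35 with them) and Chrm4 with Chrnb2 (0.06 without, -0.41 with). The mice left out were picked for each pair and need not be the same in both. The 2 sets thus did not hold in these pairs of Chrm4 once their farthest mice were left out.

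**Figure D3:**
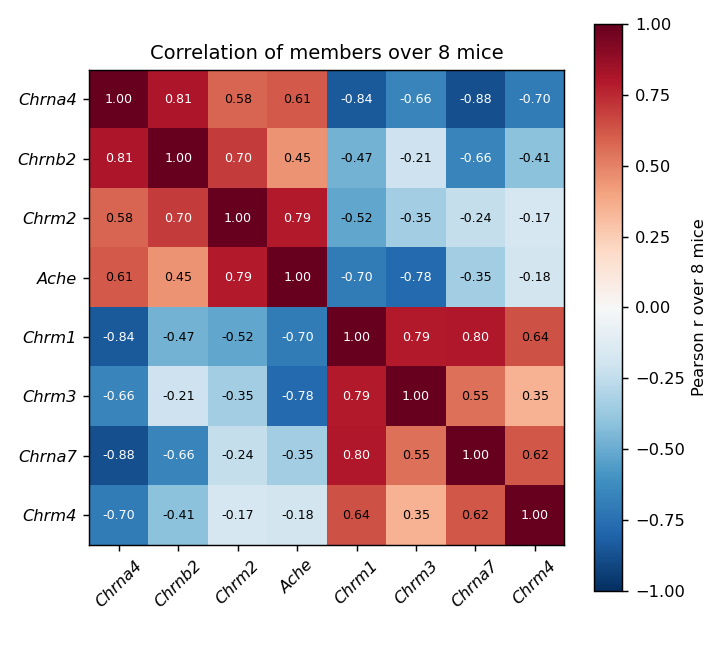
Pearson correlation over the 8 mice for each pair of the 8 genes, from blue (-1) to red (1). Chrna4, Chrnb2, Chrm2 and Ache correlate positively with each other, as do Chrm1, Chrm3, Chrna7 and Chrm4, and every pair across these sets is negative over all 8 mice. In 2 pairs with Chrm4 the sign changes without the 2 mice farthest from the median of the pair's first gene, which are picked for each pair.

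These patterns were set against markers of tissue that borders the hippocampus or lies within it. The score of a marker list is the mean deviation of its genes from their means over all mice, in log2 units. All 10 thalamus markers were tested, and their score was -0.16, 0.42, 0.45 and -0.02 in impaired mice, against -0.25, 0.45, -1.39 and 0.50 in intact mice. Intact mouse 3 was far below the others, with Tcf7l2 at 9.66 and Shox2 at 4.39. The scores also left a gap between -0.02 and 0.42 with 4 mice on each side, which were 2 of each group, and the Chrna4 values parted into the same mice. A correlation over mice that part like this rests in part on that step, and either side is too small for one of its own.

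Chrna4, which thalamic neurons are known to express strongly, correlated with the thalamus score at r = 0.85 (exact permutation p = 0.00305; rho = 0.76, p = 0.0368), and Chrm1 at r = -0.82 (p = 0.00273; rho = -0.86, p = 0.0107). Adjusted over the 32 relations of 8 genes with 4 scores, both had p = 0.0488 for r and p = 0.147 for rho. These relations were chosen after the values had been seen, and only 4 of the marker lists were used. The adjustment does not cover that choice, so the calls below 0.05 are descriptions and not a planned test. Without intact mice 3 and 1, the farthest from the median score, r was 0.97 for Chrna4 and -0.76 for Chrm1. Leaving out single mice, r ran from 0.84 to 0.91 for Chrna4 (adjusted p from 0.0667 to 0.235) and from -0.91 to -0.79 for Chrm1 (adjusted p from 0.0254 to 0.235). For Chrna4 the adjusted call was lost whichever mouse was left out, and for Chrm1 it was kept only without impaired mouse 4. The calls were lost also after median centring and after quantile normalization of the arrays (adjusted p = 0.0524 and 0.0901 for both genes), while r stayed at 0.86 and 0.87 for Chrna4 and at -0.82 in both for Chrm1. Taken as deviations from the group means, r was 0.88 for Chrna4 and -0.83 for Chrm1 (exact permutation within groups, adjusted p = 0.111 and 0.12). The part of bordering tissue in these correlations was not tested. The other genes did not pass: r was -0.83 for Chrm3, -0.74 for Chrm4, -0.67 for Chrna7, 0.59 for Ache, 0.43 for Chrnb2 and 0.40 for Chrm2 (adjusted p from 0.081 to 0.483). For Chrm3 the relation rested on the mice left out, with r = -0.23 without them (it passed without impaired mouse 1, at r = -0.93 and adjusted p = 0.0444), and for Chrnb2 r was 0.91 without them.

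**Figure D4:**
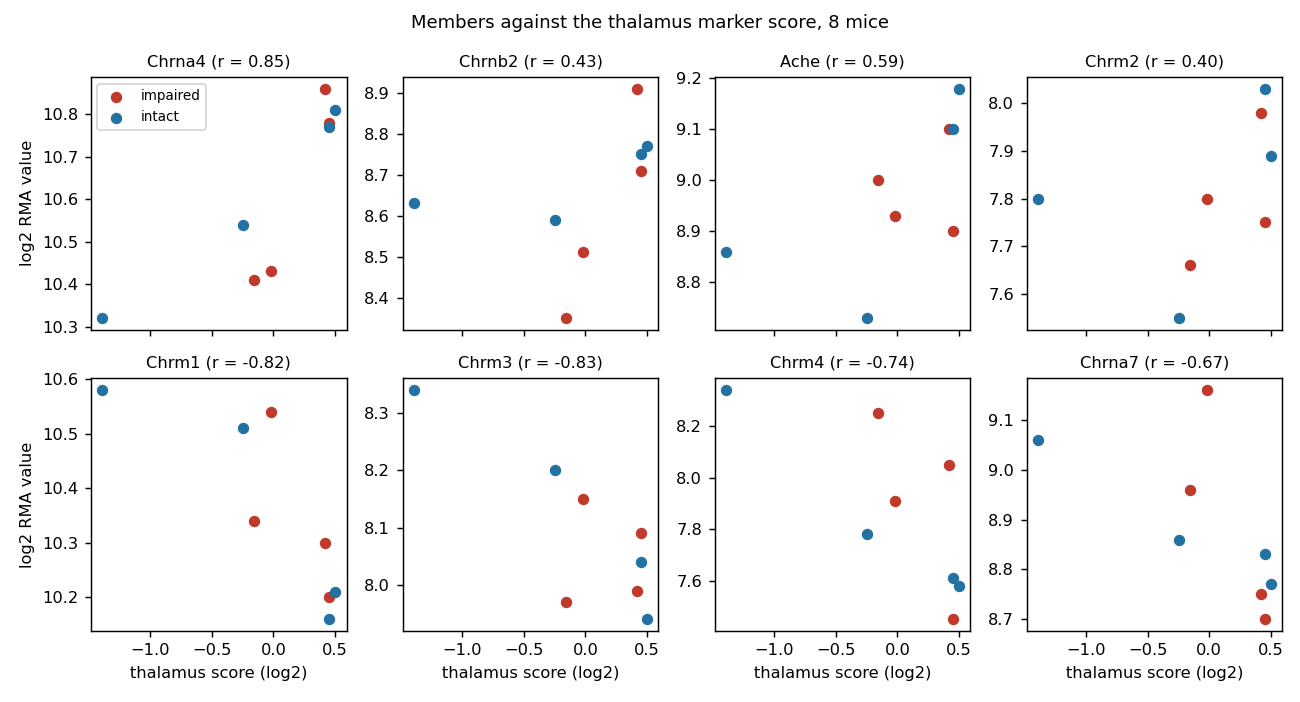
Log2 expression of each of the 8 genes (vertical axis, scaled to each gene) against the thalamus marker score (log2 units), with 1 point a mouse, impaired in red and intact in blue. The upper row holds genes with positive r, led by Chrna4 (0.85), and the lower row genes with negative r. Intact mouse 3 lies alone at -1.39.

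The remaining scores gave no call. Over CA1 pyramidal markers, of which 4 were tested, r was 0.75 for Chrm1, 0.81 for Chrm3, -0.74 for Chrna4 and -0.79 for Ache (adjusted p = 0.081 for each; rho = 0.81, 0.74, -0.81 and -0.86, adjusted p = 0.147 for each). Without intact mice 4 and 3, r with this score was 0.72 for Chrm1, 0.45 for Chrm3, -0.66 for Chrna4 and -0.80 for Ache, and for Chrm2 it was -0.93, against -0.49 over all mice. With the choroid plexus score, r lay between -0.30 and 0.08 for the 8 genes. Without intact mouse 3 and impaired mouse 3 it was -0.60 for Chrm4, 0.58 for Chrm3 and -0.55 for Ache. The choroid plexus score was -0.99 to 0.27 in impaired and -0.99 to 0.95 in intact mice. All 10 of its markers had lower means in impaired mice, as had 52.9% of all genes. All 10 thalamus markers had higher means in impaired mice, as had 47.1% of all genes, but each had its lowest value in intact mouse 3. The markers of a list vary together, so these counts are not 10 separate results. Striatum and oligodendrocyte markers, 7 tested in each list, were also all lower, and the other marker lists were mixed. With the thalamus score added to the model, the differences were 0.23 for Chrm4, -0.11 for Chrnb2 and -0.093 for Chrna4, and 0 of the 8 genes passed with it or with the choroid plexus score. Hippocampal markers were present, with Prox1 of dentate granule cells at 9.50 to 10.04 in impaired and 9.70 to 9.81 in intact mice, and Wfs1 of CA1 at 9.76 to 9.94 in impaired and 9.17 to 9.75 in intact mice. The groups thus did not overlap for Wfs1, as for 2.58% of all genes (difference 0.25, adjusted p = 0.961 in limma). They overlapped for the other CA1 markers tested. Of the 4 CA1 markers, 2 had higher and 2 lower means in impaired mice.

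The medial habenula, a neighbour of the thalamus, is known for nicotinic receptors that hold the products of Chrna3, Chrnb3 and Chrnb4. A score of 5 habenula markers other than these subunits was -0.29, 0.48, -0.30 and 0.26 in impaired mice, against -0.22, 0.14, -0.48 and 0.42 in intact mice. The 5 markers did not all go together: Lmo3 was highest in intact mice 1 and 3, at 11.31 and 11.28, where the score was low. Pou4f1, another habenula marker, had means of 4.52 in impaired and 4.46 in intact mice, under the filter's floor, and was left out. Pearson's r with the habenula score was 0.98 for Chrna3 (rho = 0.88), 0.95 for Chrnb4 (rho = 0.95) and 0.83 for Chrnb3 (rho = 0.86). Without impaired mouse 2 and intact mouse 4, r was 0.96 for Chrna3, 0.89 for Chrnb4 and 0.74 for Chrnb3. The mean of Chrnb3 was near background, above 57.1% of the intron probe sets. For Plcb4 with the thalamus score r was 0.98 (rho = 0.81), and 0.96 without intact mice 3 and 1. These 4 relations were picked after the values had been seen, so they are descriptions with no test. Ache had the highest r of the 8 genes with the habenula score, 0.73 (rho = 0.74), with an adjusted permutation p of 0.17 over the 32 relations, and 0.45 without impaired mouse 2 and intact mouse 4.

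**Figure D5:**
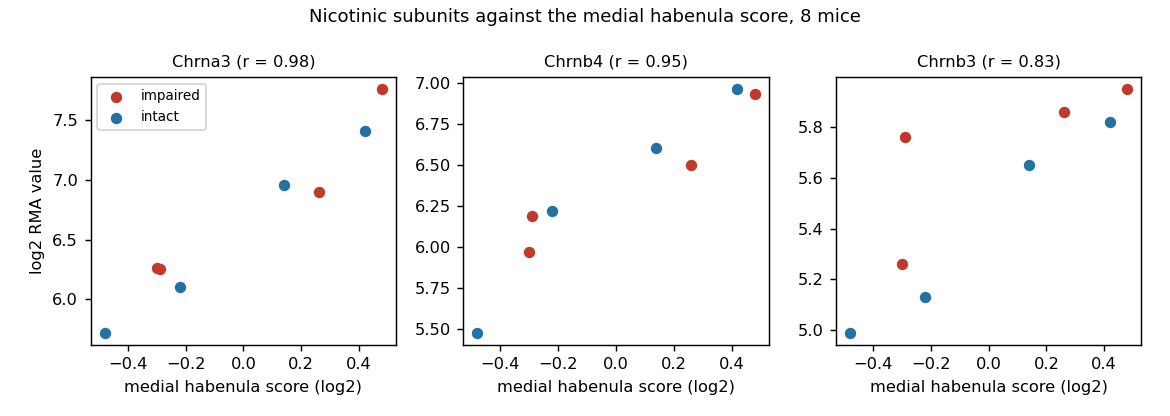
Log2 expression of the nicotinic subunits Chrna3, Chrnb4 and Chrnb3 against a score of 5 other medial habenula markers (log2 units), with 1 point a mouse, impaired in red and intact in blue. All 3 subunits are higher in mice with a higher score, with r = 0.98, 0.95 and 0.83, and both ends of the score hold mice of both groups.

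For each gene, those with the most similar pattern over the 8 arrays were Celf4 (Pearson r = 0.981) and Prkag2 (0.975) for Chrm1, Get3 (0.963) and Msi2 (0.958) for Chrm2, Tut4 (0.987) and Evc2 (0.975) for Chrm3, and Arnt2 (0.98) and Unc5a (0.976) for Chrm4. They were Epb41l3 (0.975) and Mcf2 (0.97) for Chrna4, Apol9b (0.976) and Trmt61a (0.967) for Chrna7, Fbxl22 (0.973) and Atp7b (0.972) for Chrnb2, and Cc2d1a (0.981) and Vat1 (0.966) for Ache. Each was picked as the highest among all genes tested, and between 19 and 60 genes correlated above 0.9 with any 1 of the 8, so that these values describe the 8 arrays and carry no test.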

How the data were processed

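RNA from the hippocampi of 8 mice was measured on 1-colour Affymetrix arrays, 1 array a mouse. Sense cDNA was made from 1 ng RNA with the WT Pico kit, per the labels' protocols. The deposited values are log2 signals that the authors made with RMA, per the submitters' processing notes. No version of RMA and no build is given in the sources used here. RMA normalizes arrays by quantiles and pulls differences of dim genes towards 0.

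Of 29129 probe sets, 19572 had 1 gene symbol in the platform's table, 0 had several, and the others are unnamed here. All 19572 matched RefSeq by Entrez identifier. The brightest probe set was used for each of 19505 genes (55 had more than 1), and the 25% of genes with the lowest mean were left out. The difference of impaired minus intact mice was fitted by limma 3.58.1 under R 4.3.3 (two-sided, Benjamini-Hochberg over 14628 genes, threshold 0.05). Ratios and correlations were tested by exact permutation over mice. On simulated data for this comparison, with 200 of 14628 genes changed, 51.6% of changes of 0.5 and 95.1% of changes of 1 were recovered, and 4.86% of calls were false. Precision is limited by the few arrays, with a median standard error of 0.105.

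The members and lists were chosen with earlier results of these data known, and the correlations were added after the values were seen. Beside the 8 genes, the text names the genes of each cholinergic list with an unadjusted p under 0.05 or among the 2 largest absolute differences, Chat, Slc18a3, Slc5a7 and Bche in any case, and the 2 genes most correlated with each of the 8, leaving out small RNAs, predicted genes and receptors of smell and pheromones. Chrnb4 and the named markers were added after their values were seen. Nptn is on the list of chaperones and Ly6 modulators although it is neither. Alternatives changed the variance model, the filter, the scaling, the probe set, the replicate block, tissue scores as covariates and the mice included.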

Additional observations from a re-analysis of the deposited data

Results flagged for a closer look

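In 72 groups of 4 values checked for a mouse far from the rest (by its gap over the range), 2 stood out, where chance marks about 1 in 20. Chrm5 was 5.52 in impaired mouse 3, against 6.60 to 6.80 in the other impaired mice. The score of striatum markers was 0.02 in impaired mouse 2, against -0.14 to -0.13 in the other impaired mice.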

How the results depend on the processing

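Under 17 other settings, 0 of the 8 genes passed the adjusted threshold, with a smallest adjusted p of 0.863 (Chrm3 without 1 mouse), and the largest absolute difference was 0.26. Over all genes, 1 was called with a robust prior that follows intensity, and 0 in the other 16 settings. Over these settings and the 8 genes, the sign turned 24 times, in 7 of the genes. The difference of Chrm1 was 0.015 after quantile normalization and 0.058 with the thalamus score as a covariate. With that covariate Chrna4 differed by -0.093 and Ache by -0.037, and with the mean of its probe sets Ache differed by -0.028. Leaving out each mouse in turn, the differences ran from -0.087 to 0.053 for Chrm1, from -0.11 to 0.051 for Chrm2, from -0.14 to -0.008 for Chrm3, from -0.024 to 0.26 for Chrm4, from -0.085 to 0.082 for Chrna4, from -0.077 to 0.075 for Chrna7, from -0.16 to 0.027 for Chrnb2 and from -0.066 to 0.084 for Ache. The difference in the log2 ratio of Chrna4 to Chrnb2 ran from -0.0036 to 0.11 and that of Ache to Bche from -0.034 to 0.13 (exact permutation p from 0.0857 to 1.0; -0.024 with the mean of probe sets). The cause of these turns was not tested. Replicate numbers are shared by the groups but name different mice: deviations of mice with the same number correlated at 0.0278, 0.0326, -0.0476 and -0.102, and 0 of 8 mice correlated best with its own number. With the replicate number as a block, 0 genes were called, and the ratio differences were 0.076 (exact permutation p = 0.75) and 0.018 (exact permutation p = 0.875). With the median in place of the mean, the ratio differences were 0.022 and 0.13. Among the 8 genes, signal over background limits Chrm2 and Chrm4 most, whose means lay below the 95th percentile of the intron probe sets, 7.92. Bche, used in the ratio with Ache, lay lower still, above 74.4% of these probe sets.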
